A study of Homo sapiens with 18 samples.

Results

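The collagen chains are the genes whose symbol is COL, a type number, the letter A and a chain number, and all rows of the deposited count table that match this pattern were taken, which gave 44 of 39496 genes. They were measured by RNA-seq in 18 libraries from UM-UC-3 and T24 cells, established human lines of bladder transitional cell cancer. Each line was transfected with a control siRNA (siNC, genotype labelled WT) or with siACAT1-1 or siACAT1-2 (genotype labelled ACAT1 knockdown), with 3 libraries labelled as biological replicates in each of the 6 groups. ACAT1 encodes a mitochondrial acetyl-CoA acetyltransferase, and the study used these lines to follow growth and migration after its knockdown. The siRNAs differ in their target sequence, each group is a transient transfection of 1 cell line, and the siRNA dose and the time of harvest are not given in the sources used here.

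Collagens are extracellular proteins built from chains with long repeats of glycine followed by any pair of residues, wound around each other into a helix. Fibrillar collagens (types I, II, III, V, XI, XXIV and XXVII) form or regulate the banded fibrils of connective tissue, type IV chains form the network of basement membranes, type VI chains form beaded filaments around cells, and type VII forms the fibrils that anchor an epithelium to the tissue below it. Types XIII, XVII, XXIII and XXV are transmembrane proteins, the fibril-associated collagens (FACIT, types IX, XII, XIV, XVI and others) sit on fibrils, and types XV and XVIII carry sugar chains at vascular and epithelial basement membranes. In the bladder, the urothelium rests on a basement membrane with type IV collagen, and the stroma below holds types I, III and VI.

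Library totals of counted reads ran from 25163490 to 34417230 (median 28613163), so a gene at 1 RPKM (counted reads scaled to exon length in kilobases and to the library total in megareads) is well above the counting floor, while 3 counts correspond to at most 0.0221 RPKM for COL6A2. ACAT1 fell in all 4 knockdown groups, from 44.1 to 47.4 RPKM in UM-UC-3 siNC to between 1.83 and 3.59 with either siRNA, and from 14.6 to 17.1 RPKM in T24 siNC to between 0.671 and 1.46. The labelled epithelial origin was only partly visible in the markers: 3 of 16 urothelial and epithelial markers (KRT7, KRT8 and KRT18) reached 1 RPKM in UM-UC-3 and 6 or 7 in the T24 groups, and CDH1 was listed at 0 in all siNC libraries. Of the other cell types that make collagen, at most 2 of 7 fibroblast markers and 0 of 5 endothelial markers reached a group mean of 1 RPKM, and 0 of 5 immune markers did. The fibroblast markers concerned were THY1 in UM-UC-3 (5.80 RPKM in siNC) and ACTA2, a marker of contractile fibroblasts, in T24 siNC (2.48 RPKM), T24 siACAT1-1 (1.03) and UM-UC-3 siACAT1-2 (1.02). The summed fibroblast list was at 1.27 to 4.21 RPKM in T24 siNC and 0.632 to 1.48 in the T24 knockdown libraries, and at 3.82 to 8.83 in UM-UC-3, and its part in the collagen results was not tested. Collagen levels in these bulk libraries are means over all cells, in which fewer expressing cells and less RNA per cell cannot be told apart.

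The collagen repertoire differed between the cell lines more than between the siRNAs. All 44 genes had at least 1 count in some library, and 22 reached a mean of 1 RPKM in at least 1 group, 16 in UM-UC-3 and 18 in T24. Both lines shared 12 of these, COL11A1, COL3A1, COL23A1 and COL5A1 reached it in UM-UC-3 and not in T24, and COL16A1, COL5A2, COL9A3, COL8A1, COL11A2 and COL12A1 in T24 and not in UM-UC-3. The filter on low counts kept 29 of the 44 genes for testing, and the other 15, among them COL10A1, COL14A1, COL15A1 and COL24A1, never exceeded 14 counts or 0.0744 RPKM in a library. Among them COL4A3, a type IV chain, had 0 counts over the 3 UM-UC-3 siNC libraries and 15 over those of T24. The main collagens of connective tissue fibrils were low in both lines, with group means of COL1A1 between 1.03 and 1.41 RPKM and of COL1A2 at most 0.548 RPKM.

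In control UM-UC-3 cells the collagen with the highest level was COL23A1, a transmembrane collagen, at 14.8 ± 3.21 RPKM (SD, n = 3), followed by the transmembrane COL13A1 at 12.4 ± 2.47, the type VI chain COL6A2 at 9.23 ± 2.23 and the type IV chain COL4A2 at 6.53 ± 0.641. In control T24 cells the order was the anchoring fibril chain COL7A1 at 55.1 ± 23.2 RPKM, COL6A2 at 47.7 ± 10.1, the type VI chain COL6A1 at 33.5 ± 4.66, COL13A1 at 16.7 ± 9.24, COL4A2 at 16.5 ± 3.46 and the fibril-regulating type V chain COL5A2 at 15.5 ± 3.75. The library ranges of neighbours in both orders overlapped for several pairs, such as COL23A1 (11.1 to 16.7 RPKM) and COL13A1 (10.8 to 15.2) in UM-UC-3 and COL7A1 (36.9 to 81.2) and COL6A2 (36.3 to 55.6) in T24. Summed over the 44 genes, collagens took 0.0448% ± 0.00291 of all counts in UM-UC-3 siNC and 0.174% ± 0.0186 in T24 siNC (SD, n = 3). In UM-UC-3 the siACAT1-1 libraries gave 0.04997% ± 0.00313 and the siACAT1-2 libraries 0.0513% ± 0.00396, and in T24 the shares were 0.191% ± 0.0526 and 0.1995% ± 0.0671, and the knockdown groups overlapped siNC in both lines. Set against the control of the same replicate number, the share was higher in 3 of 3 UM-UC-3 libraries of each siRNA and in 2 of 3 T24 libraries of each, where replicate 2 was lower. In T24 replicate 2 the share was 0.187% in siNC, 0.139% with siACAT1-1 and 0.128% with siACAT1-2. COL7A1 took 0.0902%, 0.0424% and 0.0302% of all counts in these libraries, so the fall lay mainly in this gene. COL7A1 alone made 34.7% of the collagen counts in T24 siNC and 1.84% in UM-UC-3 siNC. In the T24 knockdown groups it made 23.2% with siACAT1-1 and 22.9% with siACAT1-2.

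**Figure D1:**
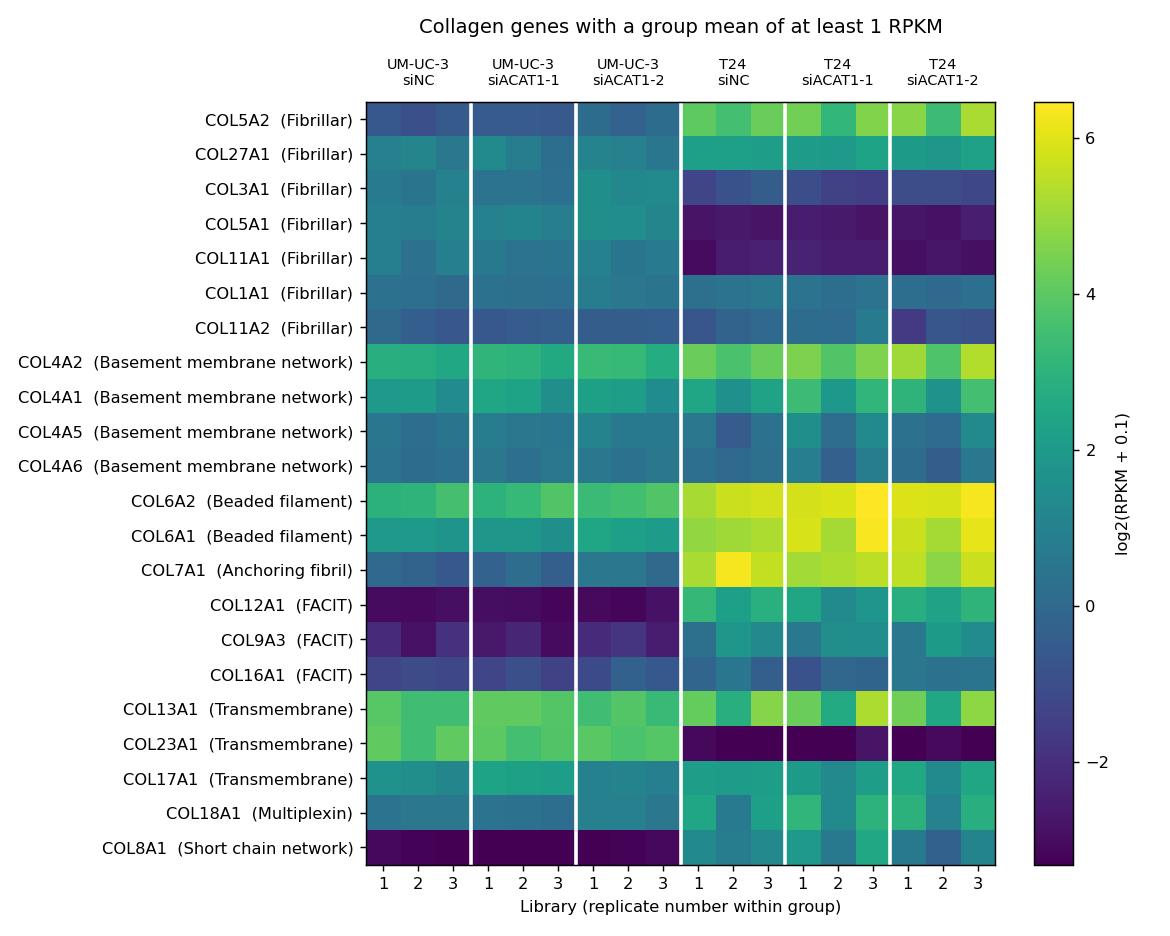
Levels of the 22 collagen genes that reached a group mean of 1 RPKM, grouped by class (rows), in each of the 18 libraries (columns, by group and replicate number), coloured by log2(RPKM + 0.1). COL23A1, COL5A1 and COL11A1 are dark in the T24 columns, and COL12A1, COL8A1 and COL9A3 are dark in the UM-UC-3 columns.

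The control groups of both lines were compared to see which collagens differ without knockdown. Per the study's methods, T24 cells were grown in an RPMI medium and UM-UC-3 cells in MEM, so cell line and medium cannot be told apart in any comparison of the lines. Of the 29 tested collagens, 6 were higher in UM-UC-3 and 12 higher in T24 at an adjusted p under 0.05 (edgeR quasi-likelihood test, Benjamini-Hochberg adjustment over 20144 genes). Over all genes tested 44.3% were called in this comparison, 22.0% as higher and 22.3% as lower in UM-UC-3, so 18 of 29 collagens stands beside a background in which a large share of the genes differed. DESeq2 also called 18 collagens, with 46.8% of all genes called. The median log2 fold change, UM-UC-3 minus T24, was -0.35 over the collagens and 0.03 over all genes tested.

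In the siNC libraries, the differences of largest size set more than 1 RPKM in 1 line against at most 0.0311 RPKM in the other. COL23A1 (chr5:178237618-178590555, minus strand, GRCh38 throughout) had 16.6, 11.1 and 16.7 RPKM in the UM-UC-3 siNC libraries and 0.0162, 0 and 0 in T24 siNC. The T24 value rests on 2 counts in all against 4804, a ratio of 2387 between the lines with a 95% interval of 428 to 94326 if the counts are taken as read pairs, which covers counting error only. The fitted log2 difference of 11.02 ± 0.63 (SE, adjusted p = 1.19e-09) depends on how the fit treats zeros. COL8A1 (chr3:99638475-99799226, plus strand), a short chain network collagen, went the other way, with 0.0151, 0.00663 and 0 RPKM in UM-UC-3 siNC against 2.495, 1.69 and 2.34 in T24 siNC. That is 6 against 1872 counts, a ratio of 314 (95% interval 107 to 1525, read pairs). COL12A1 (chr6:75084326-75206051, minus strand), a FACIT of type I fibrils, had 0.0227, 0.0200 and 0.0311 RPKM in UM-UC-3 siNC and 9.03, 4.53 and 7.26 in T24 siNC, a log2 difference of -8.10 ± 0.50 (adjusted p = 2.82e-09).

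COL7A1 (chr3:48564073-48595267, minus strand) had 0.928, 0.763 and 0.548 RPKM in UM-UC-3 siNC and 36.9, 81.2 and 47.2 in T24 siNC, and the log2 difference was -6.14 ± 0.37 (adjusted p = 1.89e-09). The T24 control libraries were unequal, with replicate 2 the highest of the 3, and all lay far above those of UM-UC-3.

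Type V collagen was split by chain. COL5A1 (chr9:134641774-134844843, plus strand), which co-assembles with COL5A2, was at 1.75, 1.68 and 2.00 RPKM in UM-UC-3 siNC and at 0.0415, 0.0571 and 0.0446 in T24 siNC, higher in UM-UC-3 by 5.29 ± 0.27 on the log2 scale (adjusted p = 4.19e-10). COL5A2 (chr2:189031896-189179879, minus strand) was at 0.554, 0.427 and 0.588 RPKM in UM-UC-3 siNC and at 16.3, 11.5 and 18.8 in T24 siNC, a log2 difference of -4.86 ± 0.46 (adjusted p = 3.34e-07). COL5A3, the remaining chain of this type, stayed under 0.45 RPKM in the siNC libraries and was higher in UM-UC-3 by 2.77 ± 0.58 on the log2 scale (adjusted p = 0.000981). Control T24 cells thus held 1 abundant type V chain, with COL5A1 and COL5A3 at no more than 0.0571 RPKM, and control UM-UC-3 cells held all 3 chains at low levels.

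Among the other fibrillar chains, COL11A1 (chr1:102876467-103108496, minus strand) had 1.55 ± 0.348 RPKM in UM-UC-3 siNC and 0.0586 in T24 siNC, a log2 difference of 4.80 ± 0.35 (adjusted p = 1.55e-08). COL3A1 (chr2:188974320-189012746, plus strand), which lies beside COL5A2 on chromosome 2, was higher in UM-UC-3 by 1.80 ± 0.25 on the log2 scale (adjusted p = 1.80e-05), with 1.57 ± 0.306 against 0.467 ± 0.160 RPKM. COL27A1 (chr9:114155560-114312511, plus strand) was lower in UM-UC-3 by a log2 difference of -1.29 ± 0.26 (adjusted p = 0.000651). The adjacent genes COL3A1 and COL5A2 therefore differed in opposite directions between the lines.

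The type VI chains COL6A1 (chr21:45981737-46005050, plus strand) and COL6A2 (chr21:46098097-46132849, plus strand) were both lower in UM-UC-3, by log2 differences of -3.17 ± 0.30 (adjusted p = 2.68e-07) and -2.32 ± 0.25 (adjusted p = 1.28e-06). COL6A3, the large chain that completes the common type VI molecule, was below 0.64 RPKM in every library and higher in UM-UC-3, at 0.396 against 0.101 RPKM in siNC (log2 difference 2.01 ± 0.29, adjusted p = 2.84e-05). Of the type IV chains, COL4A2 was lower in UM-UC-3 by a log2 difference of -1.30 ± 0.34 (adjusted p = 0.00521), while COL4A1, COL4A5 and COL4A6 did not pass the test. The remaining calls, all lower in UM-UC-3, were COL9A3 (-4.32 ± 0.58, adjusted p = 1.41e-05), COL16A1 (-1.42 ± 0.30, adjusted p = 0.00107), COL18A1 (-1.49 ± 0.52, adjusted p = 0.0282) and COL9A2 (-1.02 ± 0.41, adjusted p = 0.0495), each given on the log2 scale. The last 2 were the least stable: the adjusted p for COL18A1 was 0.124 without T24 siNC replicate 1 and that for COL9A2 was 0.169 without UM-UC-3 siNC replicate 3.

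The 11 tested collagens that were not called included the transmembrane COL13A1, at 15.2, 10.8 and 11.1 RPKM in UM-UC-3 siNC and 17.9, 6.97 and 25.4 in T24 siNC (log2 difference -0.40, adjusted p = 0.604), and COL17A1, the hemidesmosome collagen, at 3.10, 2.72 and 2.15 against 4.39, 4.14 and 4.24 RPKM (log2 difference -0.63, adjusted p = 0.0907). The COL17A1 libraries of the lines did not overlap, and those of COL13A1 did. Over the 29 tested genes, the siNC libraries of UM-UC-3 lay wholly above those of T24 for 6, wholly below for 13 and overlapped for 10, on TMM-scaled counts. Over all genes tested, the libraries of the lines did not overlap for 53.4%.

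**Figure D2:**
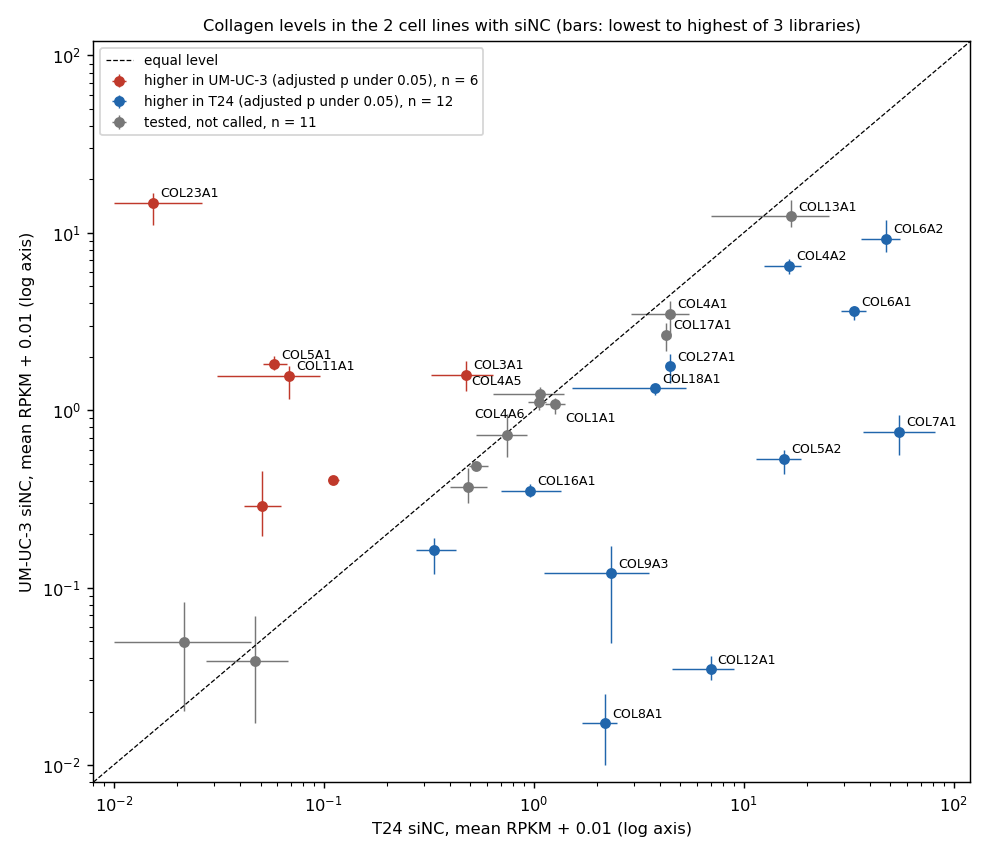
Mean level of the 29 tested collagens in T24 siNC (horizontal) and UM-UC-3 siNC (vertical), as RPKM + 0.01 on log axes, with bars from the lowest to the highest of 3 libraries and colours for the edgeR call. COL23A1, COL5A1 and COL11A1 lie far above the line of equal level, COL7A1, COL12A1, COL8A1 and COL5A2 lie far below it, and COL13A1, COL4A1 and COL17A1 lie near it.

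The knockdown comparisons asked whether collagens changed when ACAT1 was reduced. In the model of the 6 groups alone, 0 of 29 collagens were called in each of the 4 comparisons with siNC. The counts at an unadjusted p under 0.05 were 2 and 3 in UM-UC-3 for siACAT1-1 and siACAT1-2, and 7 and 4 in T24. The background was low as well, with 0.00993% and 0.0546% of all genes called in UM-UC-3 and 0.124% and 0.268% in T24. DESeq2 also called 0 collagens in each of these, where it called 0.0894% and 0.184% of all genes in UM-UC-3 and 1.95% and 1.25% in T24. For the mean of the 4 comparisons 0 collagens were called by either tool (3 at an unadjusted p under 0.05 with edgeR, with 0.223% of all genes called by edgeR and 1.56% by DESeq2). Median log2 fold changes of the 29 genes were 0.00 and 0.22 in UM-UC-3 for the siRNAs in the same order, and 0.01 and 0.04 in T24, beside -0.01, 0.00, 0.00 and 0.01 over all genes tested.

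The libraries carry replicate numbers, and those of the same number within a cell line deviated together from their group means. When this number was added to the model as a block, more genes were called throughout. For the mean of the 4 comparisons, 7 of 29 collagens were then called, all as higher, while 12.4% of all genes were called and 5.95% called as higher. These were COL4A1, COL4A2, COL4A5, COL5A2, COL6A1, COL6A2 and COL18A1. Their mean log2 fold changes lay between 0.34 and 0.53 with the block, and all lost the call without it, with adjusted p from 0.351 for COL6A2 upwards. The median over the 29 genes was 0.03 with the block and -0.00 over all genes, with 15 of the 29 above 0 and 14 below. By class the 7 genes comprised 3 of 5 tested type IV chains, 2 of 3 tested type VI chains, the type XVIII chain and 1 of 10 tested fibrillar chains.

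**Figure D3:**
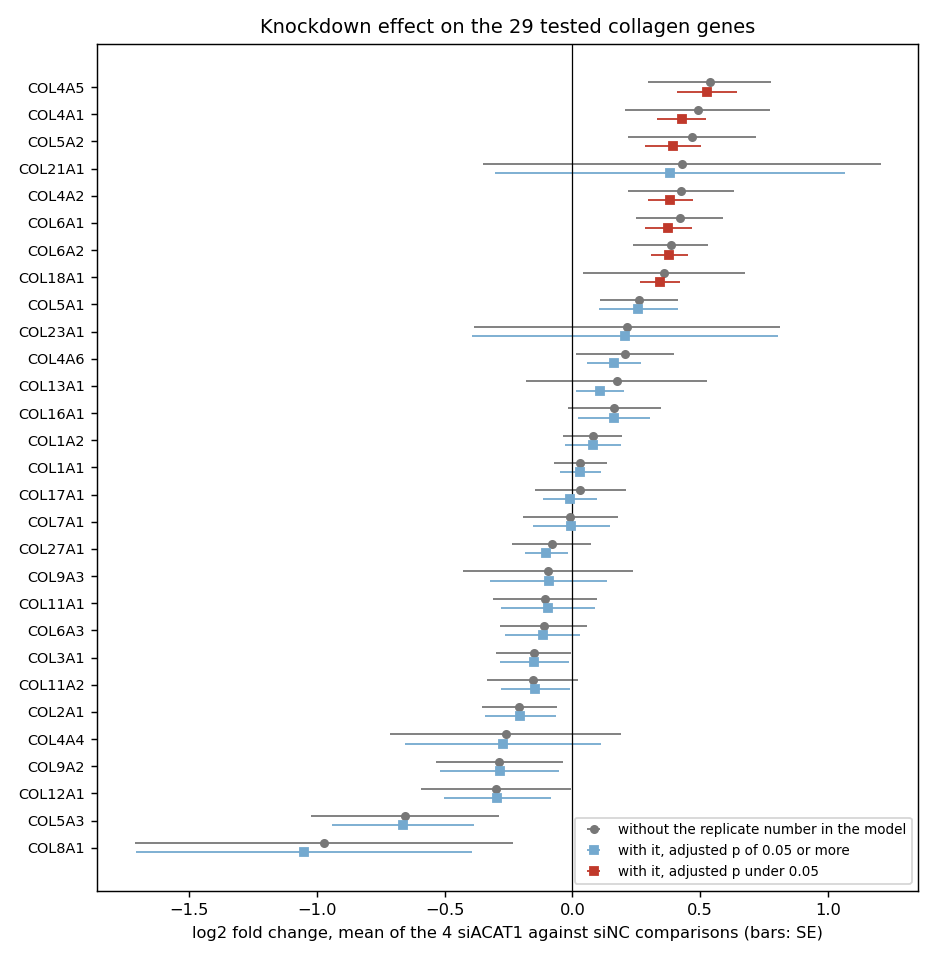
Mean log2 fold change over the 4 siACAT1 against siNC comparisons for the 29 tested collagens (rows), with bars of 1 SE, in the model without the replicate number (circles) and with it (squares). The estimates barely move between the models and the bars shorten, and 7 genes, in red, pass an adjusted p of 0.05 with the number in the model.

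Of the type VI chains, COL6A2 was higher than the control of its number in 12 of 12 knockdown libraries on TMM-scaled counts, COL6A1 in 9 and COL6A3 in 6. COL6A2 was at 36.3, 51.3 and 55.6 RPKM in T24 siNC, 56.4, 60.3 and 88.3 with siACAT1-1 and 61.6, 58.9 and 80.0 with siACAT1-2 (replicates 1, 2 and 3). All 6 knockdown libraries lay above the 3 controls, and each also lay above the control of its own number. In UM-UC-3 the levels were 7.74, 8.16 and 11.8 RPKM in siNC, 8.01, 9.29 and 13.9 with siACAT1-1 and 10.2, 11.2 and 13.9 with siACAT1-2. These groups overlapped, and 3 of 3 libraries of each siRNA were higher than the control of the same number, by amounts down to almost nothing for siACAT1-1. The log2 fold changes in T24 were 0.54 ± 0.24 with siACAT1-1 and 0.51 ± 0.24 with siACAT1-2 without the block (adjusted p = 0.383 and 0.567), and 0.52 ± 0.12 and 0.51 ± 0.12 with it (adjusted p = 0.00572 and 0.00895). In UM-UC-3 they were 0.17 ± 0.24 and 0.31 ± 0.24 without the block, and the adjusted p was 0.511 and 0.211 with it.

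COL6A1, which pairs with COL6A2 in the type VI molecule, was at 28.98, 33.3 and 38.3 RPKM in T24 siNC, 58.6, 35.1 and 82.2 with siACAT1-1 and 51.7, 34.9 and 67.9 with siACAT1-2. Replicates 1 and 3 of the knockdown groups were high and replicate 2 was within the control range. The log2 fold change was 0.73 ± 0.15 with siACAT1-1 (adjusted p = 0.00263) and 0.57 ± 0.15 with siACAT1-2 (adjusted p = 0.0177) with the block, against adjusted p of 0.231 and 0.496 without it. In UM-UC-3 the levels were 3.74, 3.86 and 3.22 RPKM in siNC, 3.53, 3.51 and 2.87 with siACAT1-1 and 5.28, 4.56 and 4.15 with siACAT1-2, so that siACAT1-1 lay lower than the control of its number in 3 of 3 libraries and siACAT1-2 higher in 3 of 3. Neither UM-UC-3 difference passed the test with the block (adjusted p = 0.710 and 0.348). COL6A3 had the reverse spread in the lines, with all siACAT1-1 libraries above siNC in UM-UC-3 (0.563 to 0.636 against 0.384 to 0.416 RPKM) and all below siNC in T24 (0.0607 to 0.0878 against 0.0945 to 0.108 RPKM), and was called in neither model.

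The type IV chains are encoded in pairs that start back to back from a shared stretch of DNA, and COL4A1 (chr13:110148963-110307149, minus strand) and COL4A2 (chr13:110305812-110513027, plus strand) are the best known pair. Their RefSeq starts lie 127 bases apart, and their promoter windows of 250 bases before and 50 after the start (RefSeq, GRCh38.p14) share 226 bases. The windows are shown because both genes of the pair were among those called, with capitals for the CCAAT box, the GC box (GGGCGG) and the TATA box (TATAAA) on either strand, so that a match on the other strand is printed as its reverse complement.

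COL4A2, chr13:110307034-110307333, plus strand: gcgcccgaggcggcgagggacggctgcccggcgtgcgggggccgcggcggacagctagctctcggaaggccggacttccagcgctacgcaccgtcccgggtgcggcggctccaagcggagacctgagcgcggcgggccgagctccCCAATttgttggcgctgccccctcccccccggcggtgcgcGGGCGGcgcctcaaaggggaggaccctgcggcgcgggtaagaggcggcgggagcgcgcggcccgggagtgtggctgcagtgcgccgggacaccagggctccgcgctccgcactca
COL4A1, chr13:110307108-110307407, minus strand: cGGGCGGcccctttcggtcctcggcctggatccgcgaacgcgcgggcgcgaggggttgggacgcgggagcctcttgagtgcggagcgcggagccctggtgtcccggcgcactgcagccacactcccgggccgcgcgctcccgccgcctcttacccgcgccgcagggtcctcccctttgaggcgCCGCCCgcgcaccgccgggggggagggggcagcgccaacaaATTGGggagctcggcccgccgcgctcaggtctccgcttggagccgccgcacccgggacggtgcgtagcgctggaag

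Each window reads 5′ to 3′ on its own gene's strand, so the shared bases appear as reverse complements. Both hold the same CCAAT box, read forward in COL4A2 and backward in COL4A1, and their GC content was 77.7% and 76.7%, against a median of 58.7% over 35116 promoter windows. CCAAT was found in 34.6% of all windows and in 14 of the 44 windows of the 32 collagens with an entry, GGGCGG in 45.0% and 24 of 44, and TATAAA in 11.5% and 8 of 44. These matches are letters in a window, not measured binding sites.

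In T24, COL4A1 was at 5.49, 2.91 and 4.91 RPKM in siNC, 10.3, 3.63 and 8.50 with siACAT1-1 and 8.05, 3.14 and 11.4 with siACAT1-2. COL4A2 was at 18.8, 12.53 and 18.2 RPKM in siNC, 23.3, 13.9 and 23.6 with siACAT1-1 and 33.5, 13.4 and 40.7 with siACAT1-2. For both genes replicate 2 was the lowest of its group in all 3 groups, the groups overlapped, and each knockdown library was above the control of its number. With the block, COL4A1 rose by 0.68 ± 0.15 on the log2 scale with siACAT1-1 (adjusted p = 0.00601) and by 0.66 ± 0.15 with siACAT1-2 (adjusted p = 0.0103). COL4A2 rose by 0.73 ± 0.14 with siACAT1-2 (adjusted p = 0.00311) and had a log2 fold change of 0.28 ± 0.14 with siACAT1-1 (adjusted p = 0.201). Without the block the adjusted p values of these 4 tests were 0.454 to 0.796.

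UM-UC-3 had smaller differences in the pair, with COL4A1 at 3.83, 4.10 and 2.55 RPKM in siNC, 5.41, 4.98 and 2.76 with siACAT1-1 and 4.63, 4.28 and 2.58 with siACAT1-2, and COL4A2 at 7.06, 6.70 and 5.82, then 8.29, 7.93 and 6.13, then 9.66, 9.34 and 6.66 RPKM. Replicate 3 was the lowest in all 3 groups for both genes. COL4A2 was above the control of its number in 3 of 3 libraries of each siRNA and COL4A1 in 3 of 3 and 2 of 3 on TMM-scaled counts, and none of the 4 differences passed the test with the block (adjusted p from 0.303 to 0.897). Antisense transcripts COL4A2-AS1 and COL4A2-AS2 share 1.09% of the COL4A2 exon bases, and the strand setting of the counting is not given in the sources used here.

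COL4A5 and COL4A6 form the pair on the X chromosome, and COL4A6 has a pair of RefSeq starts. One lies 380 bases from that of COL4A5, with 121 bases shared between their windows, and the other 1416 bases away with 0 shared. The COL4A5 window is shown beside the type IV pair on chromosome 13 for its different composition, 49.3% GC with CCAAT on each strand near its 5′ end and 0 GGGCGG.

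COL4A5, chrX:108439588-108439887, plus strand: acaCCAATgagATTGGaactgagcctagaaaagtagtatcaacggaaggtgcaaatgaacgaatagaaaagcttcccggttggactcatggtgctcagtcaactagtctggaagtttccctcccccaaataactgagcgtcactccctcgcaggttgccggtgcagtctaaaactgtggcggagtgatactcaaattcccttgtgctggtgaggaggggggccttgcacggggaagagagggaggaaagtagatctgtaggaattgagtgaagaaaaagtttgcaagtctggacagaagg

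COL4A5 (chrX:108439844-108697545, plus strand) was at 1.38, 0.629 and 1.17 RPKM in T24 siNC, 2.81, 1.03 and 2.49 with siACAT1-1 and 1.19, 0.971 and 2.41 with siACAT1-2. It rose with siACAT1-1 by 0.96 ± 0.19 on the log2 scale with the block (adjusted p = 0.00222, 3 of 3 libraries above the control of their number; 0.313 without the block) and had 0.53 ± 0.19 with siACAT1-2 (adjusted p = 0.0921, 2 of 3). In UM-UC-3 it was at 1.35, 1.04 and 1.28 RPKM in siNC, 1.64, 1.43 and 1.32 with siACAT1-1 and 1.96, 1.44 and 1.44 with siACAT1-2. There 3 of 3 libraries of each siRNA were above the control of their number, the siACAT1-2 libraries all lay above siNC, and COL4A5 was called in neither model. Its neighbour COL4A6 had group means of 1.05, 1.38 and 1.02 RPKM in T24 and 1.10, 1.28 and 1.33 in UM-UC-3 in the order siNC, siACAT1-1, siACAT1-2, and was called in neither model.

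COL18A1 (chr21:45405137-45513720, plus strand), whose C-terminal fragment is endostatin, was at 5.31, 1.52 and 4.49 RPKM in T24 siNC, 8.54, 2.501 and 7.85 with siACAT1-1 and 7.70, 1.92 and 6.99 with siACAT1-2. Replicate 2 was far below the others in each group, so the groups overlapped, while each knockdown library was above the control of its number. With the block the log2 fold changes were 0.75 ± 0.12 with siACAT1-1 (adjusted p = 0.000522) and 0.53 ± 0.12 with siACAT1-2 (adjusted p = 0.00924), against adjusted p of 0.619 and 0.846 without it. In UM-UC-3 the levels were 1.21, 1.39 and 1.37 RPKM in siNC, 1.24, 1.20 and 1.06 with siACAT1-1 and 1.80, 1.84 and 1.37 with siACAT1-2, and the log2 fold changes with the block were -0.19 ± 0.13 and 0.28 ± 0.13 (adjusted p = 0.454 and 0.328). The antisense gene SLC19A1 shares 16.4% of the COL18A1 exon bases and was called in T24 with siACAT1-1 under the block as well (log2 fold change 0.44, adjusted p = 0.0279). The strand setting of the counting is not given, so reads in the shared bases cannot be assigned here to 1 of these genes.

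COL18A1, COL6A1 and COL6A2 lie within 728 kb of chromosome 21 (chr21:45405137-46132849), a stretch with 14 genes in the table of which 7 were tested. In T24 with the block, 4 of the 7 were called higher with siACAT1-1 (the 3 collagens and SLC19A1) and 3 with siACAT1-2 (the 3 collagens), and 0 were called lower, where 6.59% and 4.55% of all genes were called higher. The ends of the stretch were set by called collagens, so these counts were largely fixed by its choice. In UM-UC-3, 0 of the 7 were called with either siRNA. The COL6A2 promoter window is shown for this cluster, since COL6A1 has no entry, and it holds 79.3% GC, 4 GGGCGG and 1 TATAAA just before the start.

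COL6A2, chr21:46097862-46098161, plus strand: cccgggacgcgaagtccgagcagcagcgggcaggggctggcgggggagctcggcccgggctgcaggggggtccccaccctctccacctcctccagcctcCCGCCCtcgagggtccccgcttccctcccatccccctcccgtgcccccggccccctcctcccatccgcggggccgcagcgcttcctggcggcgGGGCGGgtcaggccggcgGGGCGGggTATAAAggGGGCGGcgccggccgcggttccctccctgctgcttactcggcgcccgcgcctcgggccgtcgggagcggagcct

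COL5A2 was at 16.3, 11.5 and 18.8 RPKM in T24 siNC, 20.99, 8.82 and 24.3 with siACAT1-1 and 26.2, 10.2 and 37.4 with siACAT1-2. Replicates 1 and 3 were higher than their controls and replicate 2 lower, with either siRNA in RPKM. With the block the log2 fold change was 0.11 ± 0.16 with siACAT1-1 (adjusted p = 0.709) and 0.52 ± 0.16 with siACAT1-2 (adjusted p = 0.0450). The latter call was kept in 4 of the 18 fits that left out 1 library, with a log2 fold change of 0.29 to 0.79 and an adjusted p of up to 0.432. In UM-UC-3 the 3 siACAT1-2 libraries (1.01, 0.741 and 1.01 RPKM) all lay above siNC (0.554, 0.427 and 0.588), the siACAT1-1 libraries were at 0.599, 0.597 and 0.563, and the log2 fold change with siACAT1-2 was 0.77 ± 0.19 with the block (adjusted p = 0.0464). It was the only collagen called in that comparison, where 1.36% of all genes were called. Leaving out any 1 of the 3 siNC or 3 siACAT1-2 libraries of UM-UC-3 left 0 collagens called there, and so did leaving out UM-UC-3 siACAT1-1 replicate 3, T24 siACAT1-1 replicate 3 or T24 siACAT1-2 replicate 1. The count was 3 without T24 siNC replicate 2 and 2 without T24 siACAT1-2 replicate 2.

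COL12A1 went down in T24 with siACAT1-1, from 9.03, 4.53 and 7.26 RPKM in siNC to 5.44, 2.39 and 3.46, and each library was below the control of its number. With siACAT1-2 it was at 7.07, 4.88 and 8.25 RPKM. The log2 fold change with siACAT1-1 was -0.89 ± 0.15 with the block (adjusted p = 0.000900) and -0.88 ± 0.35 without it (adjusted p = 0.333), and with siACAT1-2 it was 0.01 ± 0.15 with the block. COL7A1 had means of 55.1 RPKM in T24 siNC, 39.3 with siACAT1-1 and 41.3 with siACAT1-2, and was called in neither model. It was above the control of its number in 0 of 3 T24 libraries with siACAT1-1 and 2 of 3 with siACAT1-2.

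With the block, 7 of 29 collagens were called in T24 with each siRNA, against 13.9% of all genes with siACAT1-1 and 8.48% with siACAT1-2. Of these 7, 6 were higher with each siRNA, where 6.59% and 4.55% of all genes were called higher. The siRNAs share their siNC libraries, so the comparisons are not independent. With siACAT1-1 the calls were COL4A1, COL4A5, COL6A1, COL6A2, COL11A2 and COL18A1 higher and COL12A1 lower, and with siACAT1-2 they were COL4A1, COL4A2, COL5A2, COL6A1, COL6A2 and COL18A1 higher and COL11A2 lower. These counts rest on single libraries to a degree: without T24 siNC replicate 3 they were 3 and 1, without T24 siACAT1-1 replicate 1 the first was 4, and the second was 1 without T24 siNC replicate 1, 3 without T24 siACAT1-2 replicate 1 and 2 without T24 siACAT1-2 replicate 3. The count for the mean of the 4 comparisons was 3 without T24 siNC replicate 3.

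**Figure D4:**
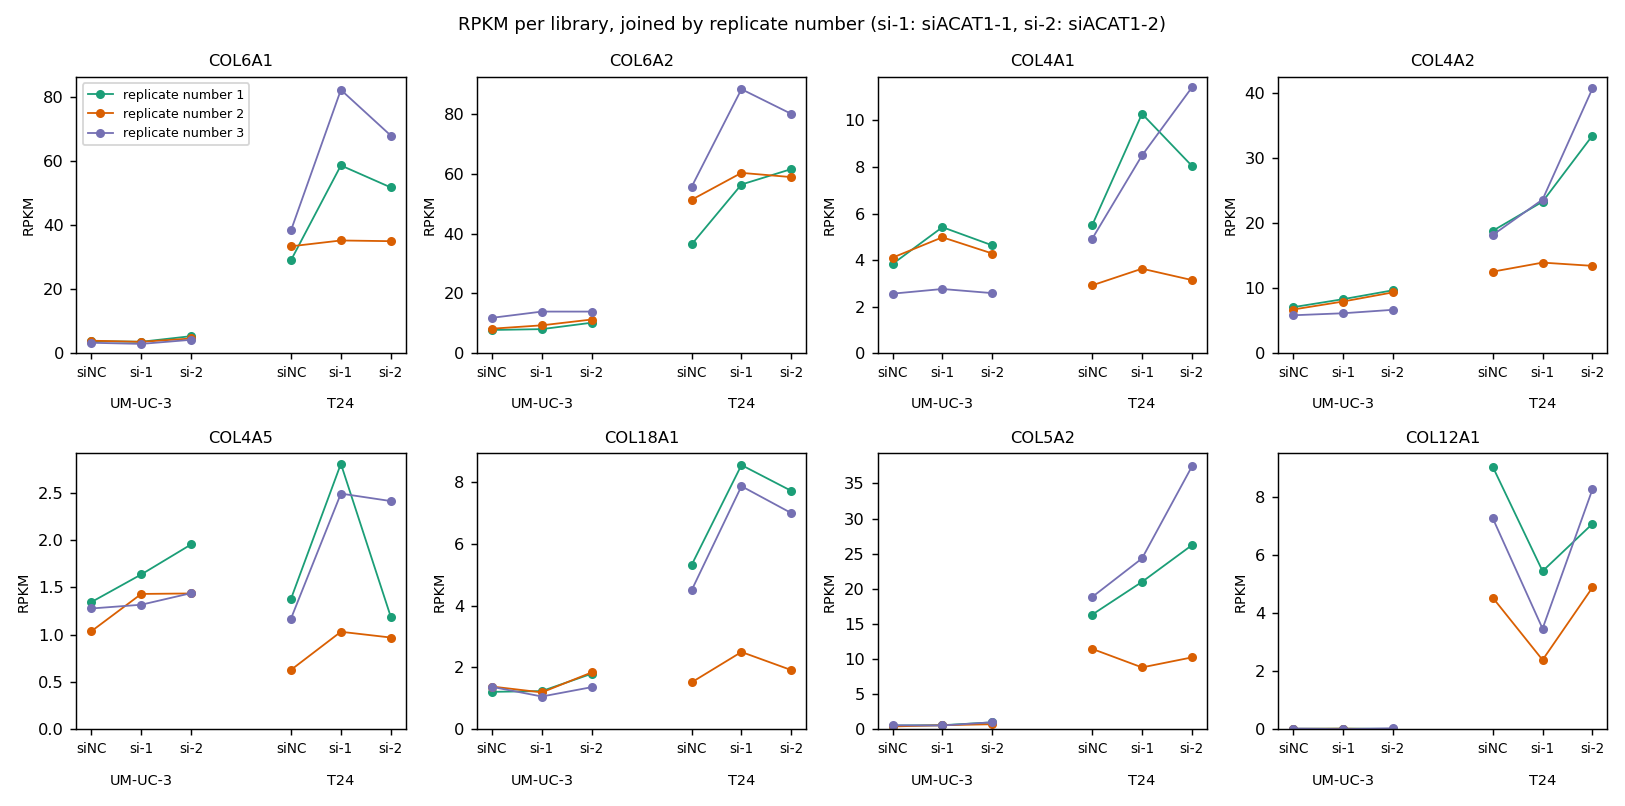
RPKM of 8 collagens in each library (points), with lines joining libraries of 1 replicate number within a cell line across siNC, siACAT1-1 and siACAT1-2. In T24 the lines of COL4A1, COL4A2 and COL18A1 run apart by number, with replicate 2 lowest, and rise from siNC, while COL12A1 dips with siACAT1-1 in all 3 numbers.

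In UM-UC-3 with siACAT1-1, COL17A1 (chr10:104031286-104086002, minus strand), the collagen that ties basal epithelial cells to the basement membrane at hemidesmosomes, was the only collagen called with the block, where 3.06% of all genes were called. It was at 3.10, 2.72 and 2.15 RPKM in siNC, 5.01, 4.65 and 4.42 with siACAT1-1 and 1.85, 1.97 and 1.77 with siACAT1-2. All siACAT1-1 libraries lay above the controls and all siACAT1-2 libraries below them. The log2 fold change with siACAT1-1 was 0.83 ± 0.17 with the block (adjusted p = 0.0150) and 0.81 ± 0.29 without it (adjusted p = 0.876), and with siACAT1-2 it was -0.54 ± 0.18 with the block (adjusted p = 0.152). Without UM-UC-3 siNC replicate 3, siACAT1-1 replicate 1 or siACAT1-1 replicate 3, 0 collagens were called with siACAT1-1 in this line, and 2 were called without UM-UC-3 siNC replicate 2 or T24 siACAT1-2 replicate 2. In T24 the levels were 4.39, 4.14 and 4.24 RPKM in siNC, 3.98, 2.33 and 4.35 with siACAT1-1 and 5.55, 2.38 and 5.49 with siACAT1-2, and within each knockdown group replicate 2 was the lowest, which spread those groups by more than the means differed. The 16 urothelial and epithelial markers summed to 166 to 211 RPKM in UM-UC-3 siNC, 131 to 144 with siACAT1-1 and 136 to 155 with siACAT1-2. Most of this sum was KRT8 and KRT18 (35.97 to 45.25 and 127 to 161 RPKM in siNC), and the part of these markers in the COL17A1 result was not tested.

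Whether the knockdown effect differed between the cell lines was tested as a difference of the mean effects, UM-UC-3 minus T24. Without the block edgeR called 0 of 29 collagens (2 at an unadjusted p under 0.05) and 0% of all genes, and DESeq2 called 0 collagens and 0.00496% of all genes. With the block 0 collagens were called (8 at an unadjusted p under 0.05), with 0.104% of all genes called, and 1 collagen was called without T24 siNC replicate 2. The lowest of these were COL18A1, with a difference of -0.59 ± 0.15 on the log2 scale (adjusted p = 0.168), COL6A1 with -0.55 ± 0.18 (adjusted p = 0.289) and COL6A3 with 0.84 ± 0.30 (adjusted p = 0.340). So the calls made in T24 and not in UM-UC-3 were not shown to be larger in T24.

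The siRNAs were compared with each other over both lines, as siACAT1-2 minus siACAT1-1. ACAT1 itself was lower with siACAT1-2 by a log2 difference of -0.62 (adjusted p = 0.0340). Without the block 0 of 29 collagens were called by edgeR (4 at an unadjusted p under 0.05), with 2.56% of all genes called, and DESeq2 called 3, COL3A1, COL11A2 and COL16A1, with 6.44% of all genes called. The edgeR adjusted p of these 3 were 0.0538, 0.0574 and 0.0622. With the block 7 collagens were called, with 20.6% of all genes called: COL3A1, COL4A2, COL5A2 and COL16A1 were higher with siACAT1-2, and COL11A2, COL13A1 and COL17A1 were lower. The median over the 29 genes was 0.15 with the block, beside 0.02 over all genes tested.

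COL16A1 (chr1:31652247-31704319, minus strand), a FACIT, was at 0.458, 0.841 and 0.785 RPKM with siACAT1-1 and 1.37, 1.21 and 1.25 with siACAT1-2 in T24, and at 0.317, 0.425 and 0.283 against 0.355, 0.726 and 0.552 in UM-UC-3. The siRNAs did not overlap in T24 and did in UM-UC-3, and the difference was 0.76 ± 0.16 on the log2 scale with the block (adjusted p = 0.00222). COL3A1 was at 1.23, 1.21 and 1.08 RPKM with siACAT1-1 and 2.81, 2.29 and 2.47 with siACAT1-2 in UM-UC-3, with the siNC libraries between them at 1.55, 1.28 and 1.89. In T24 it was at 0.409, 0.280 and 0.254 against 0.391, 0.393 and 0.330, which overlapped, and the difference over both lines was 0.65 ± 0.16 with the block (adjusted p = 0.00633). COL5A2 and COL4A2 were higher with siACAT1-2 by 0.50 ± 0.12 and 0.30 ± 0.10 (adjusted p = 0.00615 and 0.0390).

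COL11A2 (chr6:33162681-33192499, minus strand), a chain of cartilage-type fibrils, moved in opposite directions with the siRNAs in T24. Its levels were 0.522, 0.769 and 0.915 RPKM in siNC, 1.00, 0.984 and 1.52 with siACAT1-1 and 0.214, 0.522 and 0.444 with siACAT1-2. All siACAT1-1 libraries lay above the controls, and the siACAT1-2 libraries lay at or below the lowest control. With the block the log2 fold changes were 0.70 ± 0.22 with siACAT1-1 (adjusted p = 0.0353) and -0.90 ± 0.23 with siACAT1-2 (adjusted p = 0.0181). These calls against siNC were kept in 13 and 14 of the 18 fits that left out 1 library, with an adjusted p of up to 0.274 and 0.123. Over both lines siACAT1-2 differed from siACAT1-1 by -0.79 ± 0.16 (adjusted p = 0.00155). In UM-UC-3 the groups overlapped, at 0.547 to 0.677 RPKM with siACAT1-1 and 0.637 to 0.655 with siACAT1-2. As means over both lines, COL17A1 was lower with siACAT1-2 by -0.53 ± 0.12 on the log2 scale (adjusted p = 0.00452) and COL13A1 by -0.34 ± 0.11 (adjusted p = 0.0302). The lines went opposite ways for COL17A1. Against siACAT1-1 of the same number, it was lower with siACAT1-2 in 3 of 3 pairs in UM-UC-3 and higher in 3 of 3 in T24. COL13A1 was lower with siACAT1-2 than with siACAT1-1 of the same number in 3 of 3 pairs in UM-UC-3 and 2 of 3 in T24. Its call with the block was kept in 11 of the 18 fits that left out 1 library, where the difference ran from -0.44 to -0.24, and the highest adjusted p was 0.145 without T24 siACAT1-1 replicate 3. Without the block the difference was -0.36 (adjusted p = 0.721) and 0.0068 without that library, which had 38.1 RPKM against 19.0 and 6.23 in the others of its group. The COL4A2 call between the siRNAs was kept in 9 of the 18 fits, and those of the other 5 in all 18.

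**Figure D5:**
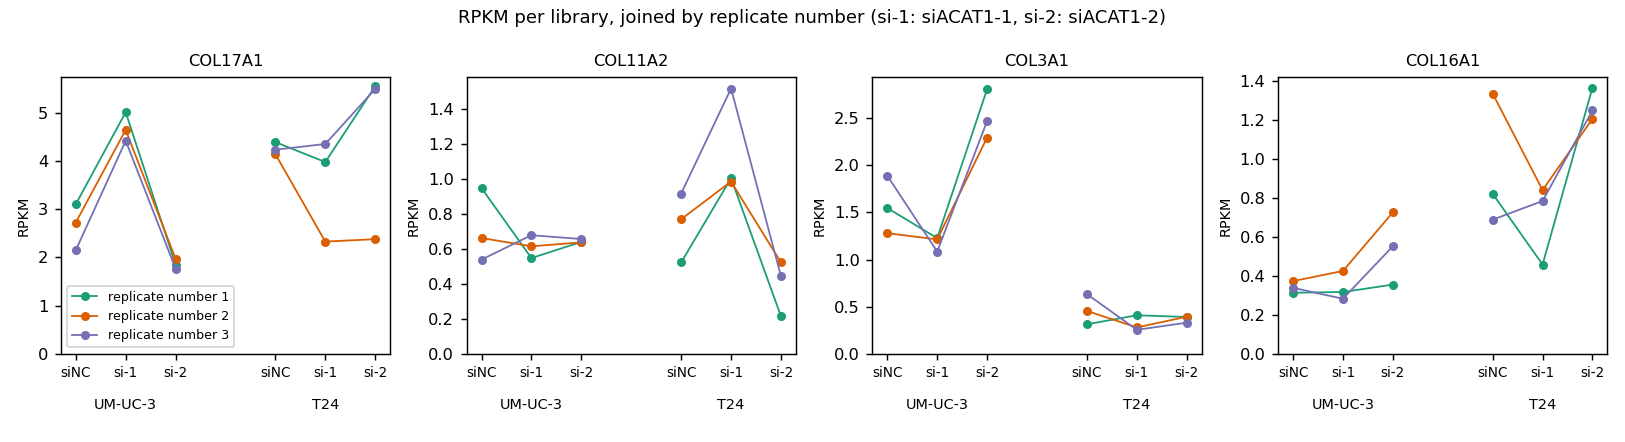
RPKM of COL17A1, COL11A2, COL3A1 and COL16A1 in each library (points), with lines joining libraries of 1 replicate number within a cell line across siNC, siACAT1-1 and siACAT1-2. COL17A1 and COL3A1 in UM-UC-3, and COL11A2 in T24, lie on opposite sides of siNC with the siRNAs.

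The replicate number marked the collagens of T24 more than the siRNA did. The shares and counts by number were taken for the collagens only. Same-number libraries of T24 also deviated together over all genes tested (r from 0.356 to 0.686), so these values show no trait particular to collagens. For the 18 collagens of at least 1 RPKM in T24, the number took a median of 58.6% of the variance of the log2 level over the 9 libraries and the siRNA 22.1%, and for 14 of the 18 the number took more. In UM-UC-3 the medians over 16 collagens were 39.1% and 46.9%, with more by number for 7 of 16. On TMM-scaled counts, T24 replicate 2 was the lowest of its group in all 3 groups for 11 of 18 collagens (COL1A1, COL4A1, COL4A2, COL4A5, COL4A6, COL5A2, COL8A1, COL12A1, COL13A1, COL17A1 and COL18A1), and UM-UC-3 replicate 3 was so for 8 of 16. The keratins of T24 shared this pattern, with KRT7 at 371, 140 and 316 RPKM in siNC, 223, 81.1 and 215 with siACAT1-1 and 330, 102 and 252 with siACAT1-2. KRT7, KRT8 and KRT18 made most of the summed level of the 16 urothelial and epithelial markers (371, 311 and 255 of 967 RPKM in T24 siNC replicate 1). That sum was 302 to 429 RPKM in the T24 libraries of number 2 and 745 to 1101 in the others. What the number marks is not given in the sources used here, and the part of this difference in the collagen results was not tested. When number 2 was left out of all T24 groups, the model without the block called COL6A1 (log2 fold change 1.05, adjusted p = 0.0118) and COL24A1, which never exceeded 14 counts, with siACAT1-1, COL4A2 (1.00, adjusted p = 0.0419) with siACAT1-2, and COL5A2 and COL6A1 for the mean of the 4 comparisons. The shares of all genes called in this fit, chosen after seeing the data, were 2.90%, 0.684% and 2.13% in the same order.

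Collagen chains are modified, folded, cut and cross-linked by dedicated proteins, which were read from lists. In the model without the block, ITGB1, the beta chain of the collagen-binding integrins and among 8 tested receptors, was the only one of 55 tested partner genes called against siNC, where 0.124% and 0.268% of all genes were called in T24 and 0.223% for the mean of the 4 comparisons. It rose in T24 by 0.89 ± 0.13 on the log2 scale with siACAT1-1 (adjusted p = 0.0172) and 0.71 ± 0.13 with siACAT1-2 (adjusted p = 0.0288), from 83.3 to 111 RPKM in siNC to 164 to 186 and 121 to 174 RPKM, and by 0.55 ± 0.08 for the mean of the 4 comparisons (adjusted p = 0.00753). Between the siRNAs, the lysyl hydroxylase PLOD1 (0.61 ± 0.15, adjusted p = 0.0331) and fibronectin (FN1, 0.99 ± 0.24, adjusted p = 0.0342) were higher with siACAT1-2.

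With the block, the mean of the 4 comparisons called 12 of the 55 partners as higher and 4 as lower, where 5.95% of all genes were called higher and 6.46% lower. The lists were chosen with earlier results known, and the partners were not tested against other genes. The calls included 7 of 15 tested genes of prolyl and lysyl modification as higher and 1 as lower. Examples were the prolyl 4-hydroxylase subunits P4HA1 (0.48 ± 0.10, adjusted p = 0.00404) and P4HA2 (0.49 ± 0.11, adjusted p = 0.00546) and the lysyl hydroxylase PLOD2 (0.48 ± 0.12, adjusted p = 0.0132), with the prolyl 3-hydroxylase P3H1 lower (-0.21 ± 0.07, adjusted p = 0.0496). The list's median was 0.04. Of 10 folding and export genes, SEC24D was higher and FKBP7 lower. Of 8 procollagen cleavage genes 0 were called, of 5 cross-linking oxidases LOXL3 was lower, of 8 receptors ITGB1 and ITGA2 were higher and MRC2, the collagen uptake receptor, lower, and of 9 fibril partners TGFBI (0.83 ± 0.12, adjusted p = 0.000204) and SPARC (0.42 ± 0.11, adjusted p = 0.0141), which binds collagen in the matrix, were higher.

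Partners also split by siRNA in T24. With the block, SERPINH1, the collagen chaperone HSP47, fell with siACAT1-1 by 1.22 ± 0.31 on the log2 scale (adjusted p = 0.0122), from 7.29 to 10.7 RPKM in siNC to 2.38 to 6.82, and was at 6.92 to 11.997 RPKM with siACAT1-2. FN1 fell with siACAT1-1 by 0.87 ± 0.16 (adjusted p = 0.00145) and rose with siACAT1-2 by 0.77 ± 0.16 (adjusted p = 0.00491), with RPKM of 10.5 to 16.2 in siNC, 5.94 to 10.3 and 11.2 to 33.8. P4HA2 rose with siACAT1-2 by 1.17 ± 0.17 (adjusted p = 0.000317) and was not called with siACAT1-1. Its mean was higher with either siRNA, at 2.84 RPKM in siNC, 3.82 with siACAT1-1 and 6.06 with siACAT1-2. Between the siRNAs over both lines, 8 of 15 prolyl and lysyl modification genes were higher with siACAT1-2 and 0 lower, where 20.6% of all genes were called and 10.4% called higher.

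Between the control lines, 24 of the 55 tested partners were called, beside 44.3% of all genes. SERPINH1 was at 0 to 0.0381 RPKM in UM-UC-3 siNC and 7.29 to 10.7 in T24 siNC, a log2 difference of -8.65 ± 0.74 (adjusted p = 9.54e-08). FN1 (-4.10 ± 0.38, adjusted p = 2.12e-07) and the lysyl oxidase LOX (-3.55 ± 0.54, adjusted p = 5.36e-05) were lower in UM-UC-3, and the procollagen peptidase enhancer PCOLCE2 (5.09 ± 0.44, adjusted p = 1.14e-07), the peptidase ADAMTS2 (4.16 ± 0.68, adjusted p = 0.000106) and the collagen receptor DDR2 (3.96 ± 0.56, adjusted p = 2.47e-05) were higher. ADAMTS2 was low in both lines, at 0.145 to 0.332 RPKM in UM-UC-3 siNC and 0 to 0.0266 in T24 siNC. DDR2 was uneven in UM-UC-3 siNC, at 2.89 to 10.1 RPKM, against 0.314 to 0.556 in T24 siNC. In counts, called genes higher and lower in UM-UC-3 were 5 and 2 of 15 for prolyl and lysyl modification, 0 and 1 of 10 for folding and export, 4 and 1 of 8 for procollagen cleavage, 1 and 2 of 5 for cross-linking, 3 and 1 of 8 for receptors, and 1 and 3 of 9 for fibril partners.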

How the data were processed

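RNA-seq counts of 44 collagen chain genes were analysed in 18 libraries (6 groups of 3). Per the labels and the study's methods, the authors prepared stranded libraries with molecular identifiers, used Trimmomatic 0.36 for filtering and STAR 2.5.3 for mapping to GRCh38, counted reads on exons with featureCounts (Subread 1.5.1) and deposited raw counts for 39496 genes. The deposited RPKM values were made by the authors from these counts, gene length and total counts, and recalculation differed by at most 6.36e-05%. Strand setting, annotation release, handling of reads mapping to several genes and use of the identifiers are not given in the sources used here. Of counts between 1 and 20, 73.0% were even (93.3% in collagens), so intervals from counts were computed for read pairs and cover counting error only. Of the gene names, 26 appear as dates and 2 belong to more than 1 row.

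The test on the deposited counts was edgeR's quasi-likelihood F test (edgeR 4.0.16, R 4.3.3, TMM, filterByExpr by group), in 1 model of all 18 libraries with 6 group coefficients, on 20144 genes. P values were adjusted by Benjamini-Hochberg within each contrast, and genes were called at an adjusted p under 0.05. SE is the log2 fold change divided by the square root of F. The scripts were tested on simulated data. Alternatives were DESeq2 1.42.0, RLE normalization, no filter, fits of fewer libraries, each library left out, and a block of the replicate numbers of each line. The numbers were taken as pairing libraries because deviations from group means correlated over genes in all 9 same-number pairs of each line (r from 0.115 to 0.576 in UM-UC-3 and 0.356 to 0.686 in T24). In pairs of other numbers r was -0.545 to 0.269 in UM-UC-3, where the ranges overlapped, and -0.567 to 0.210 in T24. Deviations within a group cancel each other, so high same-number values lower the others, which are no separate evidence of pairing. What a number marks, and whether replicates were separate cultures, is not given in the sources used here, so p values measure the spread between these libraries, which may be technical.

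Members, partner lists and markers were chosen with earlier results of these data known, and no list was tested as a set. Named were collagens of at least 1 RPKM in a group, those called in either model, the 5 of lowest p in the mean of the comparisons, and per partner list at most 6 called genes. MEP1A had no row. Coordinates come from the deposited count table. Promoter windows come from RefSeq (GRCh38.p14) and matched 32 of 44 members. The CCAAT, GC and TATA boxes spelled out in the report were searched on both strands with overlaps counted.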

Additional observations from a re-analysis of the deposited data

How the results depend on the processing

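With the replicate block in the model, the collagens called were 1 in UM-UC-3 with siACAT1-1, 1 with siACAT1-2, 7 in T24 with each siRNA, 7 for the mean of the 4 comparisons, 7 between the siRNAs and 0 for the difference between the lines, against 0 in each without the block. The block does not apply to the comparison of the lines. Without a filter on low counts the calls were 3 in T24 with siACAT1-1 (COL6A1, COL4A5 and COL12A1), 1 with siACAT1-2 (COL4A2), 3 between the siRNAs (COL5A2, COL11A2 and COL16A1) and 19 between the lines, where COL9A2 was lost (adjusted p = 0.127), beside 1.17%, 0.456%, 2.24% and 22.7% of all genes. DESeq2 called 3 between the siRNAs and 18 between the lines, beside 6.44% and 46.8% of all genes. With T24 replicate number 2 left out, chosen after seeing the data, the calls were 2, 1, 2, 4 and 20 for T24 siACAT1-1, T24 siACAT1-2, the mean, the siRNAs and the lines, beside 2.90%, 0.684%, 2.13%, 6.85% and 43.9% of all genes. In the comparison of lines, 21 were called when all 3 treatments were pooled, beside 66.1% of all genes. Without the block, RLE normalization and fits of 1 cell line changed no count of called collagens, while both turned the sign of COL6A3 in UM-UC-3 with siACAT1-2 and RLE that of COL11A2 between the lines, neither of them called. With the block, RLE left 6 of the 7 calls in T24 with siACAT1-2, where COL5A2 was lost (adjusted p = 0.0506).

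Leaving out 1 library at a time without the block gave 0 to 2 calls in T24 with siACAT1-1 (2 without T24 siACAT1-1 replicate 2), 0 to 2 between the siRNAs (2 without T24 siACAT1-1 replicate 2, and 1 without UM-UC-3 siACAT1-1 replicate 2, UM-UC-3 siACAT1-2 replicate 1, any T24 siNC library, T24 siACAT1-1 replicate 1 or T24 siACAT1-2 replicate 2), 16 to 19 between the lines and 0 to 0 elsewhere. With the block, added after seeing the data, the ranges were 0 to 2 and 0 to 3 in UM-UC-3, 3 to 9 and 1 to 8 in T24, 3 to 8 for the mean, 0 to 1 for the difference between the lines and 5 to 8 between the siRNAs. Without the block, the difference of COL13A1 between the siRNAs ranged from -0.58 to 0.0068 (-0.36 with all libraries) and changed sign without T24 siACAT1-1 replicate 3, and the cause was not tested. With the block it ranged from -0.44 to -0.24 (-0.34 with all libraries). The 15 untested collagens never exceeded 14 counts, which limits what their comparisons can show, and COL24A1 passed the filter when T24 replicate number 2 was left out.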
